A study of Rattus norvegicus with 43 samples.

Results

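The BCL2 family decides whether a cell keeps its mitochondria intact or enters programmed cell death, and 10 of its genes were followed here in the anterior pituitary of estrogen-treated rats. The genes were chosen by name: the survival genes Bcl2, Bcl2l1, Mcl1 and Bcl2a1, the pore formers Bax and Bak1, and the BH3-only genes Bid, Bad, Bcl2l11 and Bik. A gene was measured through the probe sets annotated to its symbol alone, and 9 of the 10 genes had at least 1, with 15 probe sets among them out of 31042 that were not controls. The probe set found for Bax names a further gene, so Bax has no value here.

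All 43 samples were males from an F2 intercross of the Copenhagen (COP) and ACI strains, with 1 array each. Every animal received 5 mg of diethylstilbestrol (DES), a synthetic estrogen, in an implant at 9 weeks of age, and the gland was taken 12 weeks later, at 21 weeks of age, 4 hours after an injection of 50 mg/kg bromodeoxyuridine, a thymidine analog. There was no untreated group. The animals were picked from a larger population for the 22 highest and 21 lowest pituitary weights, but the labels do not say which animal belongs to which extreme, so heavy and light glands were not compared and all arrays are treated as 1 group.

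Survival members of the family bind and hold the pore formers and the BH3-only proteins. BH3-only proteins are the sensors: they are made or switched on by lost growth signals, damage or stress, and they free or activate Bax and Bak1, which open the outer mitochondrial membrane and release cytochrome c. In the estrogen-treated rat pituitary, lactotrophs, the prolactin cells, multiply, and the size of the gland reflects both cell division and cell loss. Many family members are controlled after transcription, by phosphorylation, cleavage or degradation, which an array of RNA does not measure.

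The RefSeq promoter windows of the 3 members that take part in the relations described further on are given first, each with 250 bases before and 50 bases after the annotated start, on assembly GRCr8. Capitals mark a GC box (GGGCGG) or a forkhead site (GTAAACA) on either strand, the latter the sequence bound by FOXO factors.
Bcl2l11, chr3:135819792-135820091, plus strand: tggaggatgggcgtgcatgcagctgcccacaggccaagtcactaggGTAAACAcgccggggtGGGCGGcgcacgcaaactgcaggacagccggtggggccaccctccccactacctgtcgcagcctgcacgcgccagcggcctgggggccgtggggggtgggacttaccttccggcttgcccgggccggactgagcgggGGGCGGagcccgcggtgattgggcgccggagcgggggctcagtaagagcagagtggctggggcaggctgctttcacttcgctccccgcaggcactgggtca
Bad, chr1:213562864-213563163, plus strand: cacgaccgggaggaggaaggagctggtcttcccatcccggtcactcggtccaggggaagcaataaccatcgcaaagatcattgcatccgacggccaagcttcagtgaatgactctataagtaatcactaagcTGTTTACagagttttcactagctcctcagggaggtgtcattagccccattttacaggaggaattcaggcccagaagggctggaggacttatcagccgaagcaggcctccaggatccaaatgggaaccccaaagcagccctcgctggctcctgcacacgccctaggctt
Mcl1, chr2:185907918-185908217, plus strand: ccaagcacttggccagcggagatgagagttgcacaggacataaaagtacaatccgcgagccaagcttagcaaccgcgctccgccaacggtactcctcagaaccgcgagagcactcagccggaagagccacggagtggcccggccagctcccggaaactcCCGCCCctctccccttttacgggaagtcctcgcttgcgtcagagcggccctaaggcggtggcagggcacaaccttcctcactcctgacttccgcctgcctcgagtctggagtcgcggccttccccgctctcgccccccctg
The Bcl2l11 window held 1 forkhead match starting at position -204 relative to the annotated start, and 2 GC boxes. The Bad window held 1 forkhead match, on the minus strand at position -118, and no GC box. The Mcl1 window held 1 GC box, on the minus strand at position -91, and no forkhead match. Of 33469 promoter windows of the table, 3.78% held the forkhead letters and 33.1% a GC box, so the forkhead match shared by Bcl2l11 and Bad is the less common one. None of the windows of the 8 members that have one held a full palindromic estrogen response element, which 0.0269% of all windows did, nor a cAMP response element (TGACGTCA), which 1.83% did. A match is a string of letters and not a measured binding site.

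Levels are given as log2(intensity + 16), and a level of one probe set cannot be set against that of another, since probes differ in brightness. A probe set counted as passing where its mean log2 was above 7.16, the median of all probe sets. As a check of the labelled tissue, Prl (prolactin), at 15.61 ± 0.14 (SD, n = 43), and Gh1 (growth hormone), at 14.97 ± 0.41, passed, and the posterior lobe hormones Avp and Oxt did not. Not every marker went this way. The corticotroph genes Pomc and Tbx19 did not pass, and Syn1, of the posterior lobe and neural list, did. Of the 9 measured members, Mcl1, Bcl2l1, Bid, Bad, Bcl2l11 and Bik passed, and Bcl2, Bcl2a1 and Bak1 did not.

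Among the survival genes, Mcl1, whose protein is short-lived and constantly remade, ranged from 11.93 in animal 12 through a median of 12.30 to 12.54 in animal 2. Its mean was 12.28 ± 0.13 (SD, n = 43), and the brightest animal exceeded the dimmest by 1.52-fold, the narrowest range of any measured member. Bcl2l1, which encodes BCL-XL, ranged from 7.48 in animal 19 through a median of 8.58 to 9.25 in animal 5. That is a 3.41-fold range, with a mean of 8.56 ± 0.45 (SD, n = 43). The SD of Bcl2l1 was larger than that of 97.5% of the 200 probe sets nearest to it in mean level, and the SD of Mcl1 larger than that of 26.5%.

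Bcl2 itself, the founding survival gene of the family, lay below the filter at 6.70 ± 0.39 (SD, n = 43), from 5.68 to 7.36. Bcl2a1, a survival gene known mainly from blood cells, lay just below it at 7.10 ± 0.49, from 5.97 in animal 9 to 8.26 in animal 43, and the next highest animal had 7.88. Bak1, the pore former with a value, lay at 6.80 ± 0.55, from 5.09 to 7.63. These 3 genes entered no limma fit, and the correlations given for them below are descriptions of dim signals.

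Among the BH3-only genes, Bad, whose protein is held inactive by survival signals, ranged from 8.89 in animal 43 through a median of 9.56 to 9.83 in animal 37. Its mean was 9.55 ± 0.17 (SD, n = 43), and the next lowest animal after animal 43 had 9.28. Bcl2l11, which encodes BIM, ranged from 8.78 in animal 43 through a median of 9.31 to 9.72 in animal 38, with a mean of 9.32 ± 0.17. Animal 43 thus held the lowest value of both genes. Bid, which links death receptors to mitochondria, ranged from 8.15 through 8.57 to 9.25, with a mean of 8.57 ± 0.24.

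Bik, a BH3-only gene whose protein sits mainly at the endoplasmic reticulum, had the widest spread of the BH3-only genes that passed. It ranged from 7.98 in animal 5 through a median of 9.18 to 9.91 in animal 24, with a mean of 9.09 ± 0.46 (SD, n = 43) and a 3.81-fold range. Its SD was larger than that of 99% of the 200 probe sets nearest in level. No gap set a class of animals apart in Bik or in Bcl2l1: a 2-component mixture did not describe either better than a single normal distribution, with a difference in the Bayesian information criterion of -1.95 and -4.33. Over the 6 members that passed, the median SD was 0.21, against 0.23 over all probe sets that passed. Animal 5 joined the highest Bcl2l1 to the lowest Bik, but over all animals the pair had r = 0.09 (rho = 0.06, n = 43).

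**Figure D1:**
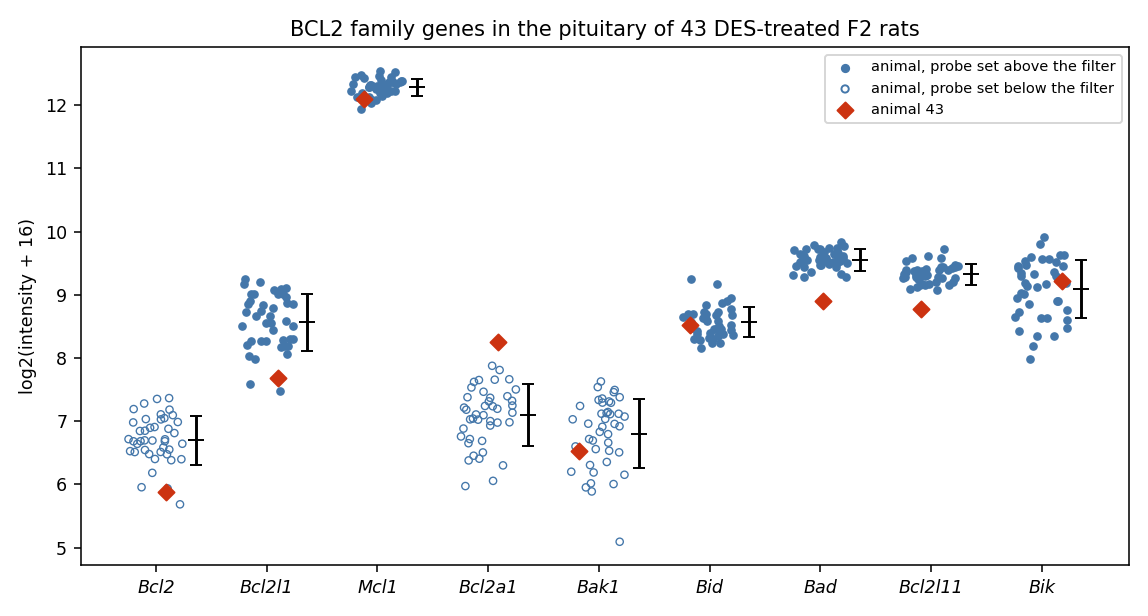
Level of 9 BCL2 family genes in 43 animals, as log2(intensity + 16) of the brightest singly named probe set of each gene. Points are animals, filled where the probe set passed the filter and open where it did not, red diamonds are animal 43, and bars are mean ± SD; heights are comparable between animals within a gene and not between genes. Bcl2l1 (SD 0.45) and Bik (SD 0.46) spread widely, Mcl1 (SD 0.13) narrowly, and animal 43 is lowest in Bad and Bcl2l11 and highest in Bcl2a1.

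Animal 43 stood apart from the other arrays over the whole genome: its mean correlation with them was 0.927, against 0.967 to 0.976 for the others. Its log2 ratio of 3' to 5' probe sets, a sign of RNA quality, was 1.97 for actin and 0.45 for GAPDH, above the highest of the other arrays (1.67 and 0.29). Across all arrays the actin ratio correlated with Bad at r = -0.35 and with Bcl2l11 at r = -0.32, and the GAPDH ratio at r = -0.43 and r = -0.41. The part of RNA quality in these 2 levels was not tested further than by leaving out animal 43 or taking both ratios as covariates, and values without that animal are given beside the main results it touches. A smooth trend over animal numbers, which carry no stated meaning, took 39.0% of the variance of Bcl2l1, 38.1% of Bcl2l11, 35.6% of Bik, 27.7% of Bad, 27.6% of Mcl1 and 10.2% of Bid. The median over all probe sets that passed was 28.1% and the 90th percentile 51.4%.

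Different probe sets of the same member hardly followed each other. The 4 members with more than 1 probe set gave 8 pairs, with r from -0.14 to 0.19 over 43 animals, and none was above 0.5. The 2 probe sets of Mcl1, both above the filter, had r = 0.14 (rho = 0.09), and the 2 of Bid, also both above it, had r = 0.13 (rho = 0.15). The 2 further probe sets of Bcl2l1 (means 5.20 and 6.44) and of Bcl2l11 (means 5.76 and 6.82) lay below the filter. Which part of a transcript each probe set reads was not examined, and every statement below is about the brightest probe set unless another is named.

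**Figure D2:**
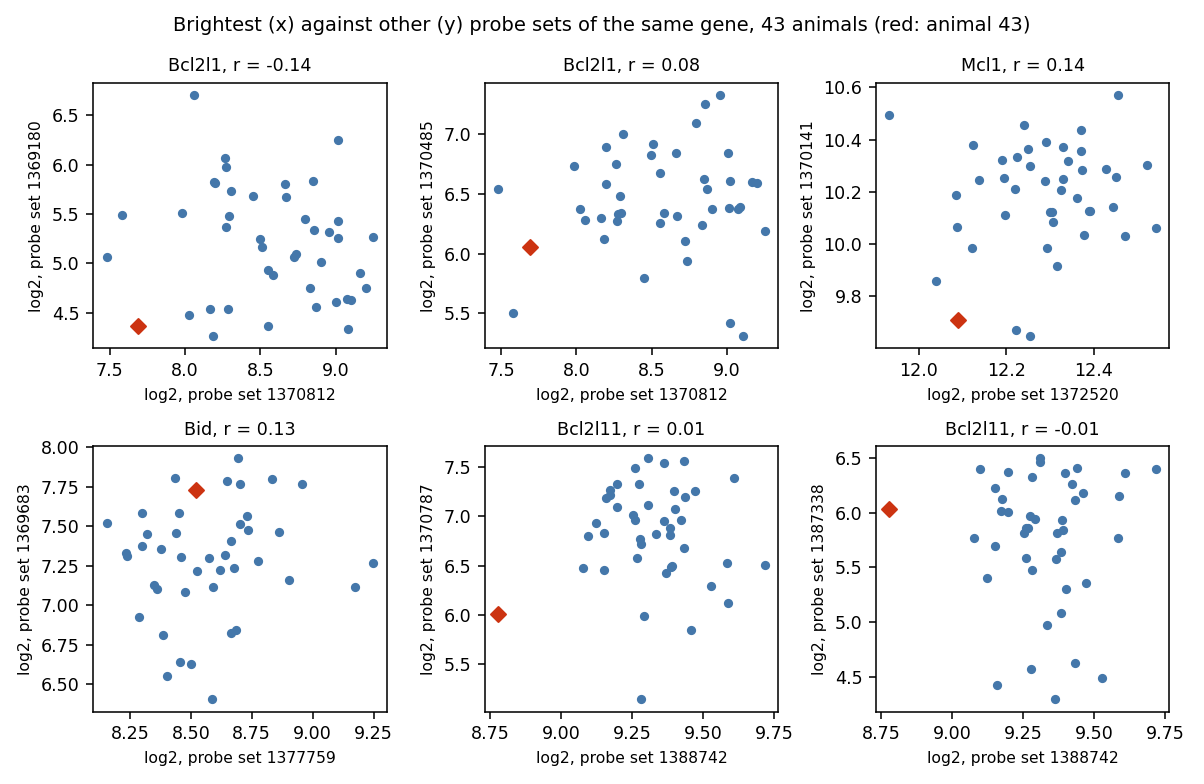
The brightest probe set (x) of Bcl2l1, Mcl1, Bid and Bcl2l11 against each other probe set of the same gene (y), both as log2(intensity + 16), in 43 animals; the red diamond is animal 43. In the 6 panels r lies between -0.14 and 0.14, so an animal's rank in one probe set says little about its rank in the other.

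Whether the family followed the state of the gland was asked with 5 scores, each the mean centred log2 level of a gene list: proliferation (38 genes), macrophage and leukocyte (17), immediate early (9), folding in the endoplasmic reticulum (16) and p53 targets (11). Each probe set was regressed on a score with limma, and p was adjusted by Benjamini-Hochberg over all probe sets that passed. None of the 6 members was called in any of the 5 fits at an adjusted p of 0.05. Over all probe sets the share called was 4.68% for proliferation, 0.381% for macrophages and leukocytes, 1.84% for immediate early genes, 0.0387% for folding and 1.84% for p53 targets, so 0 of 6 does not stand out from the background in any of them. At an unadjusted p under 0.05, 0, 0, 1, 0 and 1 of the 6 members passed in the same order, and that member was Bad both times. The shares of all probe sets at that unadjusted threshold were 21.2%, 16.6%, 22.7%, 11.4% and 22.5%.

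For proliferation, animal 38 lay alone at -0.91, the next lowest animal having -0.32, so r is given over the other 42 animals. It was 0.24 for Bid (rho = 0.22), -0.16 for Mcl1 (rho = -0.11), -0.12 for Bcl2l1 (rho = -0.14), 0.12 for Bik (rho = 0.07), 0.07 for Bcl2l11 (rho = 0.11) and -0.05 for Bad (rho = -0.13). With animal 43 left out as well, r was -0.26 for Bad and -0.08 for Bcl2l11. With all animals, Mcl1 changed by -0.04 log2 units per SD of the score (95% confidence interval -0.08 to 0.002, adjusted p = 0.265) and Bid by 0.06 (-0.01 to 0.13, adjusted p = 0.367). The intervals of the widely spread genes were broad: Bcl2l1 had -0.06 (-0.19 to 0.08) and Bik 0.05 (-0.08 to 0.19), so changes of this size could not be told from 0.

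The dimmer probe set of Bid, number 1369683, behaved otherwise in the same limma fit. It rose with the proliferation score, with a slope of 0.90 ± 0.25 (SE, n = 43) and an adjusted p of 0.0238. Over the 42 animals without animal 38 the slope's direction was kept, with r = 0.39 (rho = 0.35) and an adjusted p of 0.141, and with a trend over animal numbers as a covariate the adjusted p was 0.302. It passed in 6 of 11 alternatives, and was also lost with a step after animal 22, with no filter and with ranks. That step took 15.8% of the variance of this probe set and 16.4% of that of the score. The brighter probe set of Bid thus had an adjusted p of 0.367 and the dimmer one passed, and the difference between them was not tested.

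Against the immediate early score, the genes switched on within minutes of a signal, Bad had r = 0.35 (permutation p = 0.0249) but rho = 0.03 (permutation p = 0.832). Against the p53 target score, Bad had r = 0.32 (permutation p = 0.0374) but rho = 0.13 (permutation p = 0.424). With the 2 most extreme animals of each score left out, among them animal 43, these r were -0.00284 and -0.10, so both rest on those animals. In limma the adjusted p was 0.151 and 0.195. Over the 45 relations of 9 members and 5 scores, 3 had a permutation p under 0.05 by r and 0 by rho, unadjusted.

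**Figure D3:**
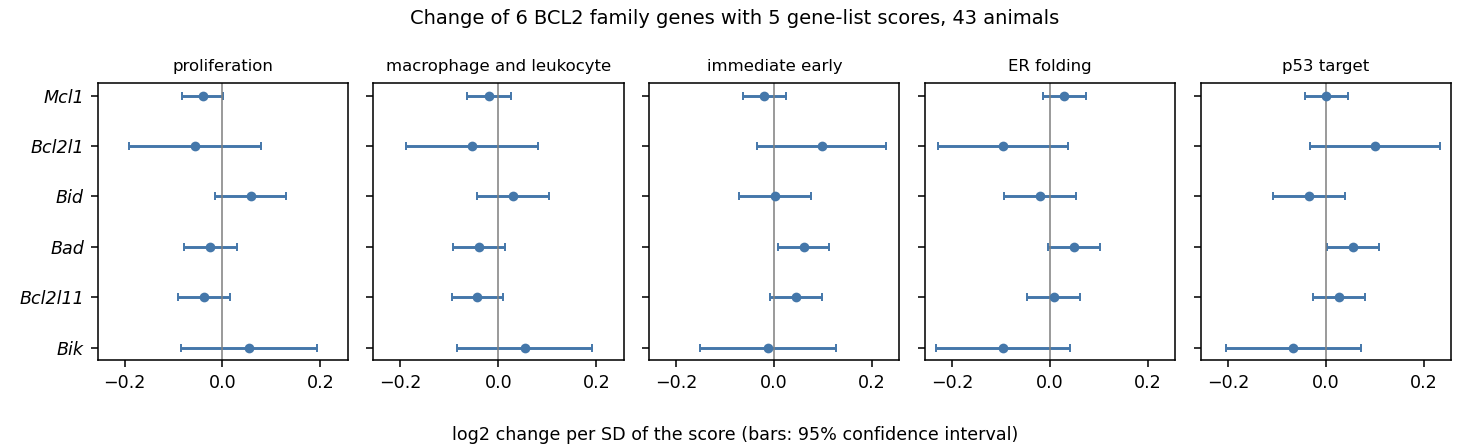
Change in log2 level of 6 BCL2 family genes per SD of each of 5 gene-list scores, from limma over 43 animals; points are slopes and bars their 95% confidence intervals (ER, endoplasmic reticulum). The intervals of Bad lie just above 0 for the immediate early and p53 target scores (unadjusted), no member passes the adjusted threshold, and the bars of Bcl2l1 and Bik are the widest.

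Members were then compared with each other. Each probe set was regressed on the level of each member in turn, and a pair counted as called where it passed in both fits. Of 15 pairs of passing members, 1 was called, Bad with Bcl2l11. Their r was 0.41 (permutation p = 0.00717), with rho = 0.19 (permutation p = 0.221), and adjusted p = 0.0445 in the fit on Bad and 0.0473 in the fit on Bcl2l11. Without animal 43, the lowest in both, r fell to 0.16 and the adjusted p in the fit on Bcl2l11 was 0.766. The co-variation of these 2 BH3-only genes therefore rests on 1 array.

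The survival gene Mcl1 and Bcl2l11, whose proteins bind each other, co-varied more evenly across animals. Their r was 0.50 (permutation p = 0.00073) and their rho 0.51 (permutation p = 0.0007), the highest r of the 36 pairs of 9 members. It was 0.45 without animal 43, 0.56 without the 2 animals farthest from the median of Mcl1, 0.42 with the trend over animal numbers removed and 0.51 with a step after animal 22 removed. In limma the pair passed in the fit on Bcl2l11 (slope 0.40 ± 0.12 log2 units of Mcl1 per log2 unit of Bcl2l11, adjusted p = 0.0206) but not in the fit on Mcl1 (adjusted p = 0.620), and it is not called. The relation is between the brightest probe sets of both genes. The other 5 combinations of a Mcl1 and a Bcl2l11 probe set had r from -0.12 to 0.15, and 2 of the 3 Bcl2l11 probe sets lay below the filter.

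Of the 36 pairs, 3 had an unadjusted permutation p under 0.05 by r, all with Bcl2l11: Mcl1, Bad and Bcl2l1. Bcl2l1 and Bcl2l11 had r = 0.31 (permutation p = 0.0459) and rho = 0.29 (permutation p = 0.0574), and without animal 43 r was 0.18. Bcl2l11 and Bik ran the opposite way, with r = -0.28 (permutation p = 0.068) and rho = -0.30 (permutation p = 0.0485). The remaining pairs lay between r = -0.29 and 0.29.

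**Figure D4:**
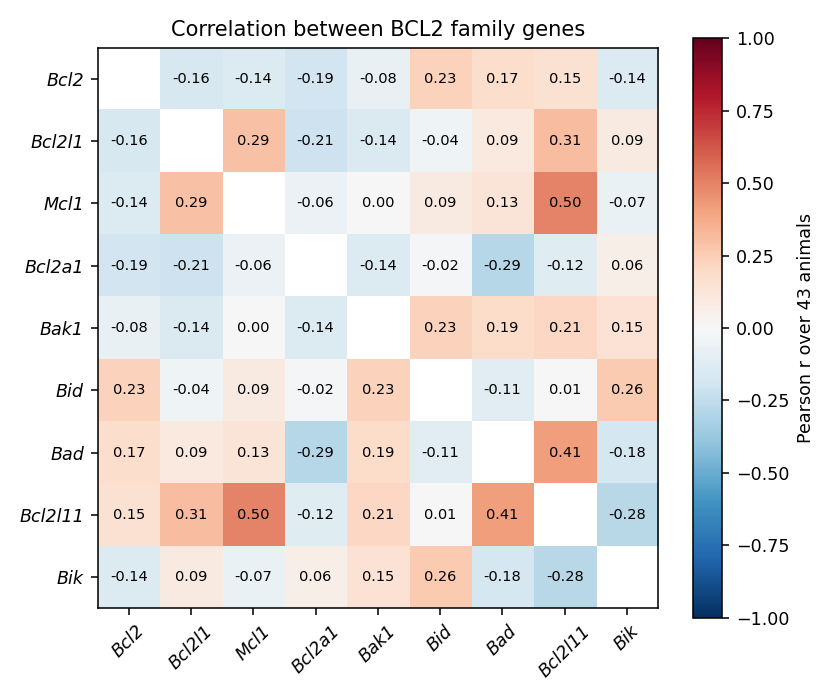
Pearson r between the levels of 9 BCL2 family genes over 43 animals, red above 0 and blue below. Mcl1 with Bcl2l11 (0.50) and Bad with Bcl2l11 (0.41) are the 2 highest values, and most other pairs lie near 0.

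How many probe sets followed each member differed widely and turned on animal 43. The share of probe sets called was 17% in the fit on Bad and 15.1% in the fit on Bcl2l11. Without animal 43 the shares were 0% and 0.00644%, the latter 1 probe set. For Bcl2l1 the share went from 0.902% to 0.00644%, for Mcl1 it was 0.00644% both times, and for Bid it was 0% both times, where 695 probe sets had an unadjusted p under 0.05 with all animals. For Bik the share went the other way, from 0.0129%, which is 2 probe sets, to 0.799%, which is 124. Without animal 43, 835 probe sets had an unadjusted p under 0.05 in the fit on Bad.

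The genes most like each member, by Pearson r over 43 animals among named genes that passed, were these. For Mcl1 they were Coro1b (r = 0.68), an actin regulator, Bcas2 (0.52) and Rpl14 (0.51), a ribosomal protein. Coro1b was called in limma (adjusted p = 0.00887) and was called without animal 43 too (adjusted p = 0.0175), but not without animal 38. It passed in 9 of 13 alternatives, and was also lost with probe sets averaged, with array quality as a covariate and with ranks. For Bcl2l11 they were Bsn (0.71), a presynaptic scaffold protein, Plcl2 (0.70) and 6430548M08Rikl (0.68). Bsn, with rho = 0.71, was the gene called in the fit on Bcl2l11 without animal 43 (adjusted p = 0.0353).

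For Bad the most alike were Prpsap1 (r = 0.73), Vps4a (0.69) and Ergic3 (0.69), and none of these was called without animal 43. For Bcl2l1 they were Cabin1 (0.61), Fhip1b (0.61) and Zbtb5 (0.60), each with adjusted p = 0.0265, and without animal 43 their adjusted p was 0.106, 0.101 and 0.101. For Bid they were Stx5 (0.58), Rtkn (0.56) and Ogt (0.50), and none passed (adjusted p of 0.784 or more). For Bik they were Prkag1, an AMPK subunit (0.59), E2f5, a cell cycle repressor (0.59), and Ebna1bp2 (0.59), each with adjusted p = 0.056. Lower where Bik was higher was Nfatc1, a calcium-regulated transcription factor (r = -0.64, rho = -0.65, adjusted p = 0.0264), which was called in 7 of 12 alternatives. Its adjusted p was 0.00664 without animal 43, but 0.0742 with a step after animal 22 and 0.465 with a trend over animal numbers.

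The rest of the pathway was described with 6 further lists of 61 genes, of which 53 had a singly named probe set and 40 passed. FOXO3 is a transcription factor known to switch on the BIM gene. Foxo3 ranged from 9.64 to 10.46, with a mean of 10.08 ± 0.19 (SD, n = 43), and rose with Bcl2l11 (r = 0.64, rho = 0.56, permutation p of 1e-05, the smallest these permutations give, and 0.00013). The slope was 0.72 ± 0.14 log2 units of Foxo3 per log2 unit of Bcl2l11, with adjusted p = 0.00204 in limma. Without animal 43 r was 0.60, but the adjusted p was 0.0734. With a trend over animal numbers the adjusted p was 0.0989 and with ranks in place of values 0.0828, while in the other 9 of 12 alternatives it stayed under the threshold. Averaging the probe sets of each gene was not among the 12 for Foxo3, and with it Aifm1, for example, lost the threshold on Bcl2l11. Foxo3 was not compared with the other Bcl2l11 probe sets, which hardly followed the brightest. In the same fit 15.1% of all probe sets were called, and Foxo1, a related forkhead gene of the list, was not. Foxo3 was not called in the fit on Bad, whose window also held a forkhead match. The forkhead match in the Bcl2l11 window above is a description of its letters, and binding was not measured.

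**Figure D5:**
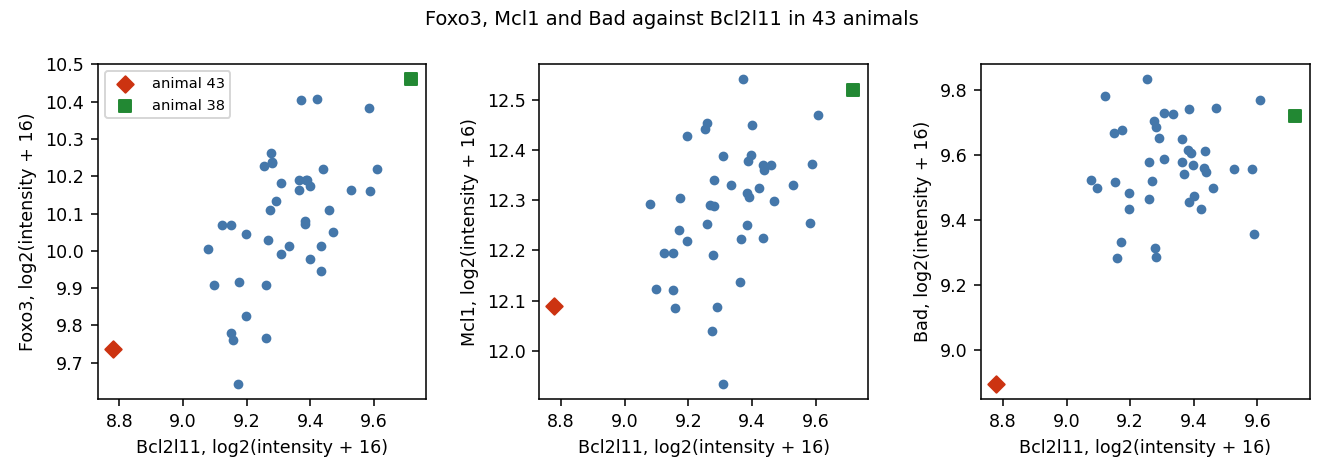
Foxo3, Mcl1 and Bad (y) against Bcl2l11 (x) in 43 animals, all as log2(intensity + 16); the red diamond is animal 43 and the green square animal 38. Foxo3 (r = 0.64) and Mcl1 (r = 0.50) rise with Bcl2l11 across the animals, while for Bad (r = 0.41) the relation comes from animal 43, without which r is 0.16.

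In the fit on Bcl2l11, 6 of the 40 further genes were called, 15%, the same as the 15.1% over all probe sets. Foxo3, the mitochondrial nuclease Endog, the outer membrane channel Vdac2 and the protease Htra2 rose with it, and Aifm1, a flavoprotein that also acts in caspase-independent death, and the ADP/ATP carrier Slc25a5 fell. Aifm1 had r = -0.55 and rho = -0.56, and without animal 43 its adjusted p was 0.226. In the fit on Bad, 9 of the 40 were called, 22.5% against 17% over all probe sets. Vdac1, Vdac2, Diablo, Akt1, Tnfrsf1a and the 14-3-3 gene Ywhae rose with Bad, and Usp9x, which spares MCL1 from degradation, Bnip3 and Slc25a5 fell. AKT1 phosphorylates BAD and 14-3-3 proteins then bind it. Akt1 had r = 0.49 (rho = 0.30) and Ywhae r = 0.64 (rho = 0.42), while Ywhaz, the other 14-3-3 gene listed, was not called (r = 0.10). Without animal 43, 0 of the 40 were called by limma on either gene, and the r of the 9 genes with Bad ranged in size from 0.06 for Tnfrsf1a to 0.41 for Diablo, with 0.38 for Ywhae, 0.18 for Akt1 and 0.12 for Vdac1. In the fits on Mcl1, Bid, Bcl2l1 and Bik, 0 of 40 were called with all animals. On Bik, 1 of 40 was called without animal 43, Aifm1, which rose with it (adjusted p = 0.0474).

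In the fits on the 5 scores, 5 of the relations of these 40 genes were called. With proliferation, 2 of 40 (5%) were called, against 4.68% of all probe sets. Casp2, an initiator caspase linked to cell division errors, fell by 0.15 log2 units per SD of the score (slope -0.75 ± 0.12, adjusted p = 1.0e-04). Animal 38, with the lowest score, had the highest Casp2, at 10.68, and without that animal r was -0.47 and adjusted p = 0.0892. Becn1, a BCL2-binding autophagy gene, rose (slope 0.49 ± 0.14, adjusted p = 0.0373), also without animal 38 (adjusted p = 0.042), but not with a trend over animal numbers (adjusted p = 0.352). It passed in 9 of 13 alternatives, and was also lost with a step after animal 22, with no filter and with a stricter filter. Among the members of each list with the highest and lowest slope, Vdac3 had -0.37 ± 0.12 (adjusted p = 0.0601) and Foxo3 -0.44 ± 0.14 (adjusted p = 0.0519), both short of the threshold, and Cflar, an inhibitor of caspase 8 activation, -0.60 ± 0.21 (adjusted p = 0.0775). The others in that group, with an adjusted p of 0.108 or more, were Htra2, Fadd, Birc3, Vdac1 and Fbxw7 with slopes above 0, and Birc2 and Bnip3 with slopes below 0.

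With the immediate early score 1 of 40 (2.5%) was called, Bok, a BAX-like family member (higher, adjusted p = 0.0466). With the p53 target score 2 of 40 (5%) were called, the tumour necrosis factor receptor Tnfrsf1a (higher, adjusted p = 0.0448) and the ADP/ATP carrier Slc25a4 (lower, adjusted p = 0.0373). None of these 3 passed without animal 43, which had the lowest value of both scores (-0.49 and -0.28). With the macrophage and leukocyte score and the folding score, 0 of 40 were called by limma, with 7 and 4 at an unadjusted p under 0.05, against 16.6% and 11.4% of all probe sets. BBC3, which p53 switches on to start cell death, was measured through Bbc3 at 8.30 ± 0.18 (SD, n = 43), from 7.84 to 8.64, with an SD above that of 2.5% of the probe sets nearest in level.

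Because glands can differ in their cell mix, members were set beside 8 marker lists of pituitary and other cell types. The corticotroph and melanotroph list and the posterior lobe and neural list had 1 passing gene each. A score took at least 2, so these lists gave none. In bulk tissue, fewer cells of a type and less RNA per cell cannot be told apart. Several of the lists shifted between animals 22 and 23: the gonadotroph score was below 0 in 22 of 22 animals up to number 22 and above 0 in 20 of 21 from number 23, and a step there took 78.5% of its variance, 68.0% of that of the somatotroph and 57.4% of that of the thyrotroph score. The 2 runs hold 22 and 21 animals, the same numbers as the highest and lowest pituitary weights. No label ties a run to a weight class, and whether the step follows gland weight was not tested. The labels do not say what the animal numbers stand for, so r is also given within both runs of numbers. A step at the same place took 17.1% of the variance of Bik and 5.86% of that of Bcl2l11, against a median of 5.55% over all probe sets that passed.

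Bcl2l11 was lower where the endothelial list was higher (3 of 7 listed genes passed, r = -0.48, permutation p = 0.00116, rho = -0.40, permutation p = 0.00844, unadjusted over 72 relations, of which 8 had a p under 0.05 by r). Within animals 1 to 22 r was -0.49 and within 23 to 43 it was -0.44, but the second run holds animal 43, the lowest in Bcl2l11. Without animal 43, whose endothelial score was the highest, at 0.62 in a range from -0.54, r over all others was -0.34. No r was computed for the second run without that animal, so the -0.44 does not show the relation among the other animals there. Of those, the lowest in Bcl2l11, animal 27 at 9.08, had an endothelial score of 0.02, and the highest, animal 38 at 9.72, had 0.23. That order is opposite to the relation. The next at either end, animal 31 at 9.12 and animal 25 at 9.59, had 0.22 and 0.04, which goes with it. With the gonadotroph list (5 of 5 listed genes passed) Bcl2l11 had r = -0.31 (permutation p = 0.0441) and rho = -0.40 (permutation p = 0.00789). Within the 2 runs that r was -0.45 and -0.04. Bcl2l11 also had r = -0.40 with the fibroblast and matrix list (3 of 7 listed genes passed, rho = -0.44, permutation p = 0.00679 and 0.00307), with -0.33 and -0.50 within the 2 runs. Without animal 43 r over all others was -0.38, and again no r was computed for the second run without it. With animal 43 included, a lower level with a higher endothelial score within the runs was not particular to Bcl2l11. Bcl2l1 had r = -0.11 with that list over all animals, and 0.02 without animal 43. Within the 2 runs it had -0.38 and -0.67, and -0.48 with the step removed. The second run again holds animal 43, its lowest in Bcl2l1 (7.69). The part of the cell mix in the relations of Bcl2l11 with Foxo3 and Mcl1 was not tested.

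Bik followed 4 lists over all animals by an unadjusted permutation p under 0.05, but none of these relations held within both runs. For the thyrotroph list (2 of 3 listed genes passed) r was 0.43 over all animals (permutation p = 0.00473, rho = 0.49, permutation p = 0.00131), 0.30 within animals 1 to 22, 0.06 within 23 to 43 and 0.19 with the step removed. For the fibroblast and matrix list it was 0.41 over all animals (permutation p = 0.00578, rho = 0.41, permutation p = 0.00612), 0.34 and -0.04 within the runs and 0.26 with the step removed. For the gonadotroph list (5 of 5 listed genes passed) r was 0.41 over all animals (permutation p = 0.00648), but 0.23 and -0.09 within the runs. For the somatotroph list (3 of 5 passed) it was 0.33 (permutation p = 0.0321), but -0.11 and 0.19 within them. With the lactotroph list, the cells that multiply under estrogen, Bik had r = 0.14 (rho = 0.23) over all animals and Bcl2l11 r = 0.10 (rho = -0.05).

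Bcl2a1, below the filter, was lower where the folliculostellate and stem cell list was higher (4 of 6 listed genes passed, r = -0.39, permutation p = 0.00982, rho = -0.43, permutation p = 0.00462), with r = -0.63 within animals 1 to 22 and -0.17 within 23 to 43. It had r = 0.26 (rho = 0.25) with the macrophage and leukocyte score, and 0.17 without animal 43, which was highest in both.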

How the data were processed

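RNA of the anterior pituitary of 43 rats was measured on arrays carrying 1 biotin-labelled sample each. Per the deposited table, each probe set of each array had 1 linear intensity, which the authors had scaled so that the mean without the lowest and highest 2% was between 500.17 and 500.22 on every array; the sources used here do not name the summarising software. The deposited intensities were kept, 16 was added and log2 taken, which understates differences of dim probe sets. No 2 columns were identical. Probe sets were named from the platform annotation only where it gave 1 gene symbol; a gene was represented by its probe set with the highest mean. Of 31042 non-control probe sets, 15521 with a mean log2 above 7.16 were tested.

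A score was the mean of its list's passing genes after centring, and the genes of the list were left out of its fit. limma 3.58.1 (lmFit, eBayes, R 4.3.3) was used with Benjamini-Hochberg adjustment over all probe sets tested and a threshold of 0.05; Pearson r and Spearman rho had 2-sided tests with 100000 permutations (numpy 2.4.6), with p unadjusted. Clusters were sought with mclust 6.1.1. The fit was tested on simulated data. Named genes were the members, further genes called or with the highest or lowest slope of their list (given for proliferation), and the 3 named genes most like each member; other genes named were chosen after their values were seen. The members and lists were chosen with earlier results of these data known. The animals are separate, and their number limits precision. Alternatives covered scaling, pseudocounts, filters, averaged probe sets, leaving out animals 43 and 38, array quality, animal number and ranks; the relations with marker lists within animals 1 to 22 and 23 to 43 were added after seeing the data. Promoter windows are from RefSeq (GRCr8), with a window found for 8 members; motifs were searched on both strands. Pituitary weights and genotypes were not used.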

Additional observations from a re-analysis of the deposited data

How the results depend on the processing

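Of 115 values of the main counts and spreads under alternatives, 94 stayed within 1.5 times of the reported value or within its spread. With the probe sets of each gene averaged, 1 member was called with proliferation (Bid, adjusted p = 0.0116). With array medians subtracted 1 member was called with the folding score (Mcl1, adjusted p = 0.0311), and with quantile normalization 1 (Bad, adjusted p = 0.00771). The 5 calls among the further cell death genes became 12 with array medians subtracted, 22 with quantile normalization, 1 with no filter, 10 with probe sets averaged, 3 without animal 38, 2 with a trend over animal numbers, 11 with a step after animal 22 and 3 with ranks. The 1 called member pair, Bad and Bcl2l11, became 0 with quantile normalization, a pseudocount of 64, no filter, probe sets averaged, without animal 43, without animal 38, with array quality, the trend or the step as covariates, and with ranks. Of 538 values for 43 named relations, 320 kept their side of the threshold and direction, 217 lost the threshold, and 1 turned. The 320 include the 13 values of Mcl1 with Bcl2l11, which passed in none. The relation that turned was Htra2 with Bcl2l11, with r = -0.0901 with probe sets averaged. Ranks give no median SD, and averaged probe sets give no probe set pairs. No paired analysis was possible because the samples form 1 group. The causes were not tested.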

Other observations

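Among the further cell death genes that passed, 2 of 40 had an SD above that of 90% of the 200 probe sets nearest in level. Xiap, an inhibitor of caspases, had a mean of 9.16 ± 0.41 (SD, n = 43), from 8.15 to 9.93, and an SD above that of 94.5% of its neighbours. Foxo1, a forkhead factor related to Foxo3, had 9.16 ± 0.38, from 8.07 to 10.00, and an SD above that of 94%. The caspase partners Apaf1 and Casp9 were among the least variable genes for their level, with SDs above those of 2% and 1% of their neighbours. Of the death receptor list, Fas, its ligand Faslg, Tnf, Tnfsf10 and Tnfrsf21 lay below the filter, while Tnfrsf1a, Tradd, Ripk1, Fadd and Cflar passed.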
